A study of Homo sapiens with 15 samples.

Results

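The 44 genes described here encode the proteins that copy DNA, from the complexes that license replication origins to the enzymes that supply nucleotides. They were given as a list of symbols, with no measured value in the rule, and were found in the deposited count table by matching its Ensembl identifiers to GENCODE symbols. All 44 were among the 57272 genes of the table, and all 44 were kept among the 15799 genes tested. The counts came from RNA sequencing of MRC-5, a long-established human fibroblast line derived from fetal lung, so that every value comes from 1 cell line. The study asked how replicative senescence, the telomere protein TRF2 and the nuclear lamina protein Lamin B1 shape the transcriptome. There were 15 libraries in 5 conditions with 3 replicates each.

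All cells had been infected with a lentivirus, either the empty vector pWPIR-GFP (EV) or pWPIR-GFP-TRF2, and all had been transfected with an siRNA. Young cells were collected at population doubling (PD) 30 with EV and a control siRNA (young EV), with TRF2 and a control siRNA (young TRF2), or with EV and an siRNA against LMNB1 (young siLMNB1). Senescent cells had been infected before they stopped dividing, and were transfected with a control siRNA once their growth had reached a plateau. This was at PD 71 with EV (sen EV) and at PD 75 with TRF2 (sen TRF2), so that the senescent groups also differ in the number of divisions. Per the study's methods, young cells had carried the TRF2 virus for days and senescent cells for many divisions. The labels do not say whether replicates were separate cultures, and p-values measure the spread between these libraries.

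In dividing cells, origins are licensed in G1, when ORC, CDC6 and CDT1 load rings of MCM2 to MCM7 onto DNA. In S phase, CDC45 and the GINS complex turn these rings into active helicases, the sliding clamp PCNA is loaded by the RFC complex, and the polymerases alpha, delta and epsilon copy both strands. Many of these genes are transcribed at the entry into S phase under E2F transcription factors, and their transcripts are low in cells that have left the cycle. Fibroblasts that reach replicative senescence have left the cycle for good.

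Total counts were between 26725885 and 43116046 per library. All 6 senescent libraries carry a label saying that they had been deposited before and were reanalysed, which 0 of the 9 young libraries carry, so deposit and senescence cannot be told apart. Relative to the mean of the young EV libraries, the slope of log2 counts per 10 points of GC content was between −0.0063 and 0.134 for young libraries and between 0.46 and 0.823 for senescent ones, and it was largest in the third sen EV library. This library stands apart from the other sen EV libraries. In sen EV against young EV, the members whose call changes without it (POLD1, E2F1 and RPA2) are given with and without it. Values of members in sen TRF2 against sen EV come from fits that hold it, unless stated. The second young TRF2 library also stands apart, with TERF2 at 306.8 CPM against 128 and 149 CPM and the proliferation marker MKI67 at 110.8 CPM against 43.7 and 49.9 CPM in the other young TRF2 libraries. The fibroblast markers COL1A1, COL1A2, COL3A1, DCN, LUM, PDGFRA, PDGFRB, THY1, VIM and FAP were all measured and summed to 20170 to 33740 CPM (counts scaled to library size) in every library, while the markers of leukocytes (PTPRC, CD68, CD3E) summed to at most 0.237 CPM and those of endothelium (PECAM1, VWF, CDH5) to at most 3.40 CPM. CD68 shares 78.8% of its exonic bases with another gene on its strand, so its low counts are uncertain. The epithelial markers (EPCAM, KRT5, CDH1, SFTPC) summed to at most 0.928 CPM, apart from 1 young EV library with 7.84 CPM, most of it KRT5. LMNB1 was at 61.0, 59.5 and 58.6 CPM in young EV and 2.36, 2.91 and 2.75 CPM with siLMNB1, a log2 fold change of −4.48 ± 0.13 (SE; adjusted p = 2.30e-12) by edgeR's quasi-likelihood test. TERF2, which encodes TRF2, changed by 3.03 ± 0.25 (SE; adjusted p = 2.32e-05) in young cells and by 3.23 ± 0.25 (SE; adjusted p = 1.01e-05) in senescent cells with the TRF2 virus.

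Some members share exonic bases with a neighbouring gene, and the strand setting and annotation release used for counting are not given in the sources used here. Of the canonical transcript of POLA2, 55.8% lies on the same strand as exons of a read-through gene (ENSG00000285816) that is not in the count table used here. CDC42EP2, which that read-through gene also covers, had 1086, 1337 and 1065 counts in young EV, 0, 1 and 0 in sen EV and 2, 0 and 1 in sen TRF2. PRIM1 shares 28.9% of its canonical transcript in this way, with NACA and with a read-through gene that is likewise not in the table, and POLD1 shares 12.4%. Among protein-coding genes tested, the median log2 fold change between sen EV and young EV was −0.76 for the 133 genes with over 50% of their exonic bases shared on the same strand and −0.047 for the 10934 genes that share none. The falls of POLA2 and PRIM1 in senescence are therefore uncertain in size, and the part of this counting in them was not tested. On the opposite strand, TYMS shares 66.5% of its canonical transcript with ENOSF1 and TYMSOS, GINS4 33.4% and MCM2 32.4% with long non-coding RNAs. Without knowledge of the strand setting, these reads cannot be told apart. In all, 24 of the 44 members share no exonic base with another gene.

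The start sites of 38 members could be matched by symbol to RefSeq promoters (build GRCh38.p14), with 50 start sites in all. The 250 bases before each start were searched on both strands for letters that E2F factors are known to bind (TTTCCCGC, TTTCGCGC, TTTGCCGC, TTTGGCGC) and for TTTGAA, the letters of the cell cycle homology region (CHR) found in many genes of G2 and mitosis. An E2F form was present before 17 of the 50 member starts (34.0%), in 16 of 38 genes, against 2.79% of all 35116 starts of the same length and 3.94% of the 16683 starts of genes tested. The CHR letters stood before 1 member start (2.0%), against 13.3% of all starts and 9.31% of starts of genes tested. The 16 genes with a match had a median log2 fold change of −1.72 between sen EV and young EV, and the 22 genes without one had a median of −1.82. A match is a description of the letters and not a site shown to be bound. The stretches below end at the base before the RefSeq start, with the matches in capitals. They show the gene with the most matches (MCM6), the clamp and its loader (PCNA, RFC3), a gene whose fitted fall in sen EV against young EV was exceeded by E2F2 alone (TYMS), and a pair of genes whose GC content is among the highest of the members (CDT1, E2F1).
MCM6: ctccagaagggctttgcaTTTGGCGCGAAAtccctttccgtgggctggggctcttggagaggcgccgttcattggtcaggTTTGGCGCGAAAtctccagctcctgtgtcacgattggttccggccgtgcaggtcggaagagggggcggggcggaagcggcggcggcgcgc
PCNA: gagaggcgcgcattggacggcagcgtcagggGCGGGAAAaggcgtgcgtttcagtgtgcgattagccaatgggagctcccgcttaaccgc
RFC3: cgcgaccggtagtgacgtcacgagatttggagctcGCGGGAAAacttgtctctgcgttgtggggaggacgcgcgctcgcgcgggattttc
TYMS: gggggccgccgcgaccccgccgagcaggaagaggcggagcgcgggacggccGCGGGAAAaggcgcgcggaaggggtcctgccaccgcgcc
CDT1: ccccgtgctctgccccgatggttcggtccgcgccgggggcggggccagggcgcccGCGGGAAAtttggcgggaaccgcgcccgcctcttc
E2F1: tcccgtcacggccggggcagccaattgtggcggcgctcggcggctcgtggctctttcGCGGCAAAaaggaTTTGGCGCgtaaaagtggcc
The stretch of MCM6 is chr2:135876444-135876613 on the minus strand, that of PCNA chr20:5126623-5126712 on the minus strand, and that of RFC3 chr13:33818059-33818148 on the plus strand. The stretch of TYMS is chr18:657563-657652 on the plus strand, that of CDT1 chr16:88803699-88803788 on the plus strand, and that of E2F1 chr20:33686386-33686475 on the minus strand. In MCM6 the 4 matches form 2 pairs, and in each pair a form on the plus sense and a form on the reverse sense overlap. None of the forms stood in the window of RRM2.

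The comparison of sen EV with young EV asks how the replication genes differ at replicative senescence. In senescent cells, 41 of the 44 genes fell, 0 rose, and the median log2 fold change of the 44 was −1.58. Over all 15799 genes tested, 31.9% fell, 32.7% rose and the median was 0.023. "Fell" and "rose" here mean an adjusted p below 0.05 (edgeR's quasi-likelihood test, p adjusted by Benjamini-Hochberg over all genes tested). With the fold threshold of the study (at least 1 on the log2 scale), 35 members were downregulated, against 11.8% of all genes. In 41 members all 3 sen EV libraries lay below all 3 young EV libraries, which was the case for 32.8% of all genes. The 44 genes together held 1779 ± 22.5 CPM in young EV (SD, n = 3) and 681 ± 54.6 CPM in sen EV. In sen EV, 36 members stood at or below 50% of their young EV mean and 17 at or below 25%, without shares over all genes. In bulk RNA, fewer cells in S phase and less RNA of a gene per cell cannot be told apart.

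**Figure D1:**
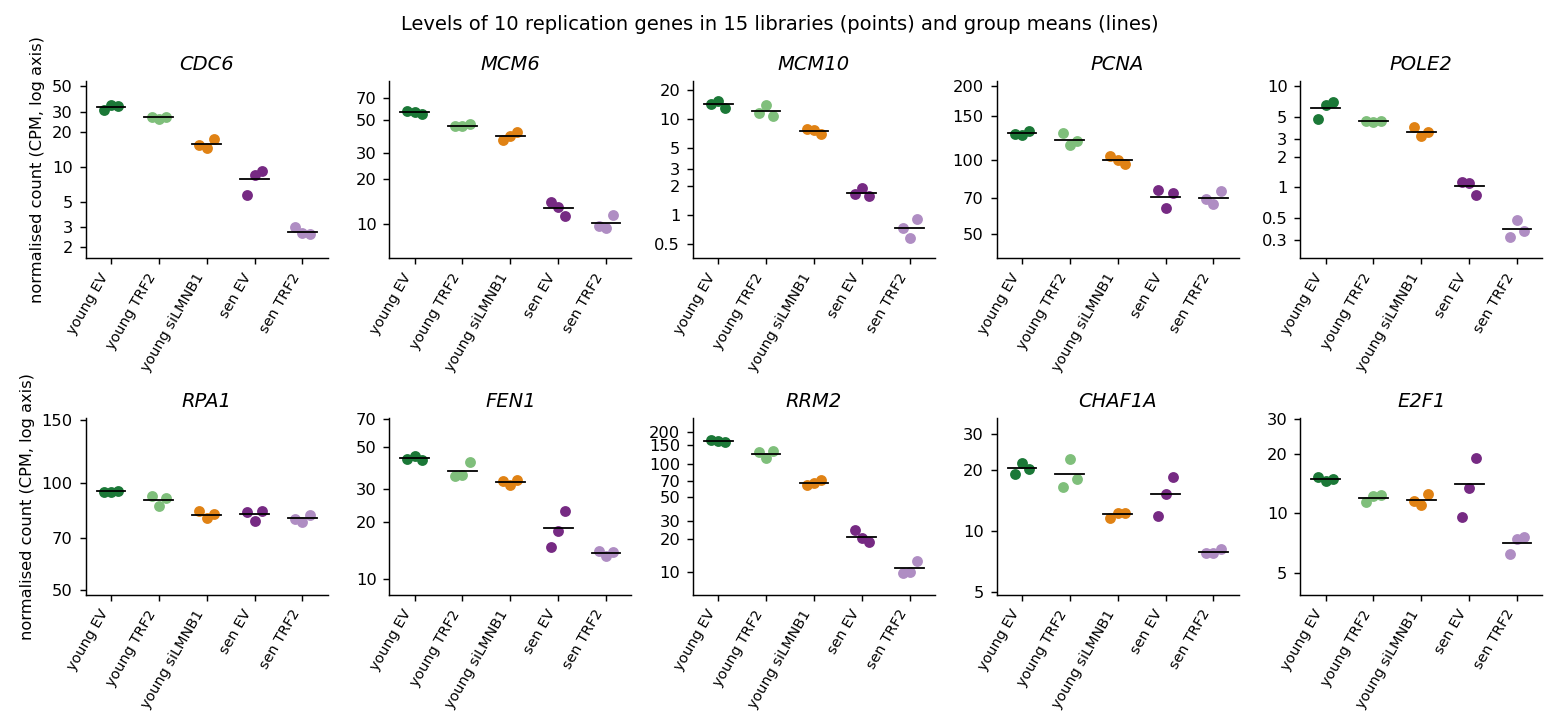
Normalised counts (CPM, log axis) of 10 replication genes, 1 from each role, in each of the 15 libraries (points), grouped by condition, with the group mean as a line. The levels of CDC6, MCM6, MCM10, POLE2, FEN1 and RRM2 in all 6 senescent libraries lie below all 9 young libraries, while 1 sen EV library of E2F1 lies above every young library.

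**Figure D2:**
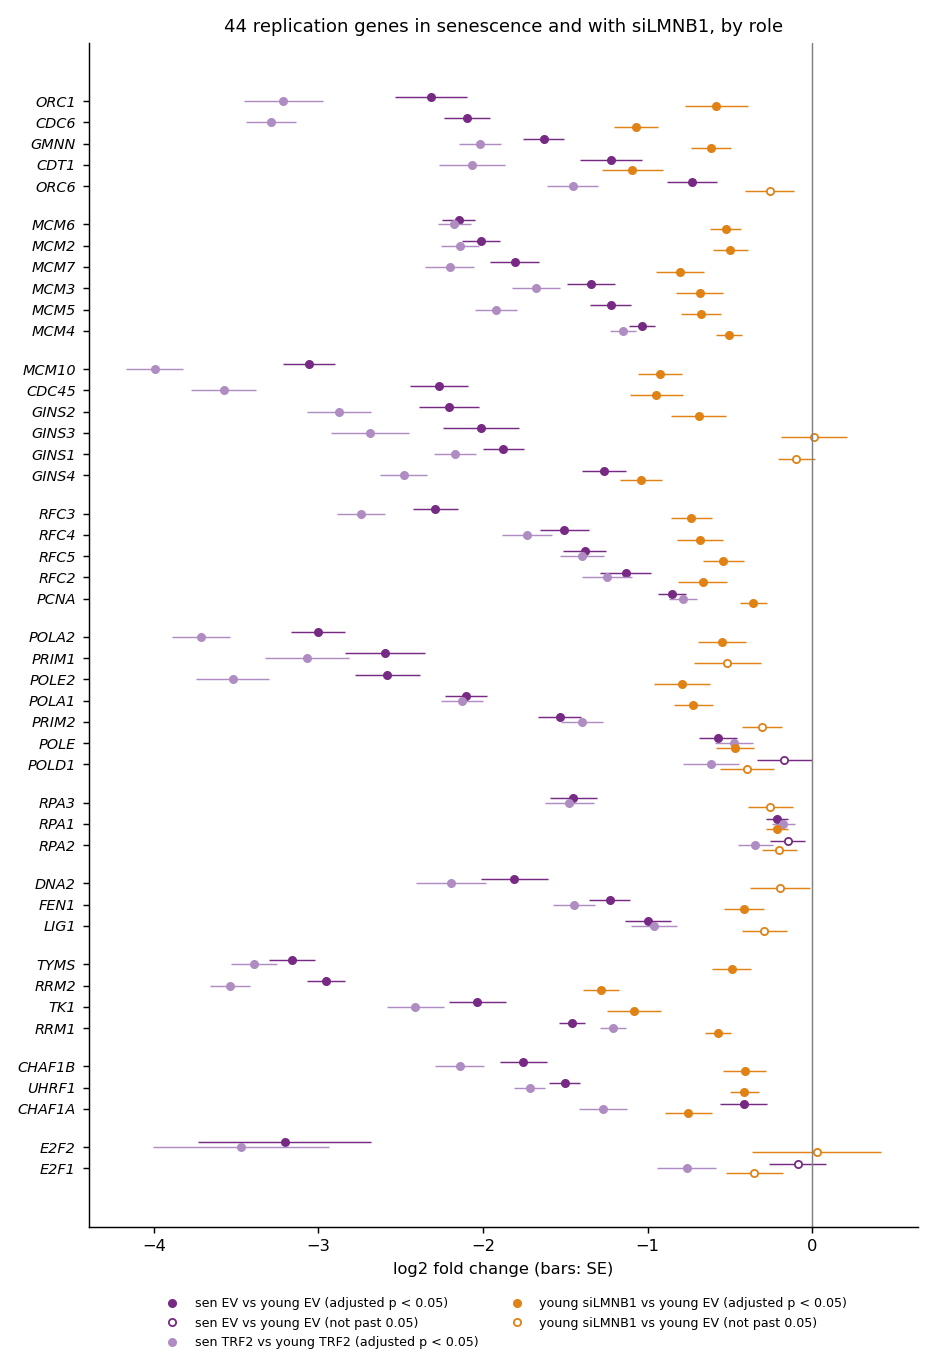
Log2 fold changes of the 44 replication genes (points, bars are SE) in sen EV against young EV, sen TRF2 against young TRF2 and young siLMNB1 against young EV, grouped by role and ordered within a role by the first comparison. Filled points have an adjusted p below 0.05. Nearly all points lie left of 0, and the siLMNB1 points lie nearer to 0 than the senescent points for most genes.

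All 5 licensing genes fell. CDC6 (ENSG00000094804, chr17:40287879-40304657, plus strand), the ATPase that helps to load the MCM rings, was at 31.4, 34.7 and 34.0 CPM in young EV and 5.65, 8.52 and 9.17 CPM in sen EV. The groups were far apart, and the log2 fold change was −2.10 ± 0.14 (SE; adjusted p = 2.70e-09). ORC1, the ORC subunit whose level changes with the cell cycle, changed by −2.32 (adjusted p = 1.44e-07). CDT1, the partner of CDC6 in loading, changed by −1.22 (adjusted p = 3.21e-05), and GMNN, which encodes the CDT1 inhibitor geminin, by −1.63 (adjusted p = 1.41e-08). Thus the loading factor and its inhibitor fell together. ORC6, the smallest ORC subunit, had the least fall of the group, from 10.49, 12.8 and 11.6 to 5.13, 7.78 and 8.13 CPM. Its libraries did not overlap, with a log2 fold change of −0.73 ± 0.15 (SE; adjusted p = 5.07e-04), but after offsets were added for GC content and length it came to −0.34 (adjusted p = 0.0741).

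The helicase subunits MCM2 to MCM7 also all fell. MCM6 (ENSG00000076003, chr2:135839626-135876443, minus strand) was at 57.2, 57.0 and 54.6 CPM in young EV and at 13.9, 12.9 and 11.3 CPM in sen EV, a log2 fold change of −2.15 ± 0.099 (SE; adjusted p = 2.82e-11). MCM3 had the largest p of the group, with 62.1, 58.6 and 54.2 CPM in young EV and 16.2, 23.9 and 28.7 CPM in sen EV. Its senescent libraries were spread, with the third the highest, but all were below the young ones (log2 fold change −1.34 ± 0.14 SE, adjusted p = 6.64e-07). The falls were unequal within this ring of 6 subunits. MCM2 stood at 24.8% of its young level, MCM7 at 28.5%, MCM5 at 42.7% and MCM4 at 48.8%. The summed level of the 6 genes went from 469 ± 9.64 CPM (SD, n = 3) in young EV to 161 ± 26.0 CPM in sen EV.

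Of the factors that activate the helicase, 6 of 6 fell, with a median log2 fold change of −2.11. MCM10 (ENSG00000065328, chr10:13161558-13211110, plus strand), which is needed to start unwinding, was at 14.1, 15.3 and 12.8 CPM in young EV and 1.64, 1.89 and 1.56 CPM in sen EV. The groups were well apart, with a log2 fold change of −3.06 ± 0.16 (SE; adjusted p = 1.09e-10). CDC45 changed by −2.27 (adjusted p = 1.52e-08), and the GINS subunits by −1.88 (GINS1), −2.21 (GINS2), −2.01 (GINS3) and −1.26 (GINS4). GINS3, the least certain of these, had 3.97, 5.40 and 3.83 CPM in young EV and 0.892, 1.11 and 1.26 CPM in sen EV. Its groups did not overlap either (log2 fold change −2.01 ± 0.23 SE, adjusted p = 1.29e-06).

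The clamp and its loader fell less evenly. PCNA (ENSG00000132646, chr20:5114953-5126626, minus strand), the sliding clamp that holds polymerases on DNA and also serves repair, kept 55.4% of its young level, the most of these 5 genes, with a log2 fold change of −0.85 ± 0.083 (SE; adjusted p = 2.17e-07). RFC3 was at 20.5, 18.1 and 17.6 CPM in young EV and 3.35, 4.0 and 4.11 CPM in sen EV, the deepest fall of the loader (log2 fold change −2.29 ± 0.14 SE, adjusted p = 7.10e-10). RFC2 went from 23.7, 21.9 and 24.5 to 9.18, 8.67 and 14.0 CPM. The third sen EV library was the highest for RFC2 but still below the young ones (log2 fold change −1.13 ± 0.15 SE, adjusted p = 7.77e-06). RFC4 and RFC5 changed by −1.51 and −1.38, so the loader subunits measured here spanned −2.29 to −1.13.

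Of the polymerase and primase genes, 6 of 7 fell. POLA2, the second subunit of polymerase alpha, was at 27.1, 28.5 and 28.4 CPM in young EV and 2.60, 2.96 and 4.83 CPM in sen EV (log2 fold change −3.00 ± 0.17 SE, adjusted p = 2.49e-10), with the overlap stated above. POLA1, the catalytic subunit, which has no such overlap, changed by −2.11 (adjusted p = 7.94e-10). The primase subunits PRIM1 and PRIM2 changed by −2.60 and −1.53, and the value of PRIM1 also carries the overlap stated above. Polymerase epsilon gave unequal falls. POLE2, its second subunit, was reduced to 16.7% of its young level (−2.58, adjusted p = 1.13e-08), and POLE, its catalytic subunit, to 67.3% (−0.57, adjusted p = 3.94e-04). POLD1, the catalytic subunit of polymerase delta, did not pass the test. It was at 17.5, 18.6 and 16.5 CPM in young EV and 10.8, 16.0 and 19.9 CPM in sen EV, so that the groups overlapped through the third sen EV library (log2 fold change −0.17 ± 0.17 SE, adjusted p = 0.381). Without that library POLD1 changed by −0.41 (adjusted p = 0.0201), and with the GC and length offsets by −1.15 (adjusted p = 6.24e-07).

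The single-strand binding protein RPA, which also acts in repair, had the smallest median log2 fold change of the 10 roles, −0.21. RPA3, the smallest subunit, was at 16.2, 17.8 and 14.0 CPM in young EV and 5.76, 5.63 and 6.19 CPM in sen EV, without overlap (log2 fold change −1.45 ± 0.14 SE, adjusted p = 2.76e-07). RPA2 was at 33.4, 34.3 and 38.6 CPM and 27.2, 31.4 and 37.2 CPM, and the groups overlapped (log2 fold change −0.15 ± 0.10 SE, adjusted p = 0.225). RPA1, the largest subunit, changed by −0.21 (adjusted p = 0.0116) and by −0.11 (adjusted p = 0.12) with the offsets. The 3 subunits of 1 complex thus kept 36.6% (RPA3), 90.1% (RPA2) and 86.2% (RPA1) of their young levels.

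All 3 genes for the processing of Okazaki fragments fell. FEN1, the flap nuclease, was at 42.9, 44.6 and 42.8 CPM in young EV and 14.7, 17.8 and 22.9 CPM in sen EV (log2 fold change −1.23 ± 0.12 SE, adjusted p = 3.37e-07). LIG1, the ligase that joins the fragments, went from 18.6, 21.5 and 19.9 to 9.44, 9.44 and 11.1 CPM (log2 fold change −0.999 ± 0.14 SE, adjusted p = 1.14e-05). DNA2, a nuclease and helicase for long flaps, changed by −1.81 (adjusted p = 1.10e-06).

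All 4 genes of nucleotide supply fell, with a median log2 fold change of −2.49, the lowest of the 10 roles. RRM2 (ENSG00000171848, chr2:10120698-10211725, plus strand), the regulated subunit of ribonucleotide reductase, was at 169.5, 164 and 160.3 CPM in young EV and 24.2, 20.8 and 18.8 CPM in sen EV. The senescent level was 12.9% of the young one (log2 fold change −2.95 ± 0.12 SE, adjusted p = 4.52e-12). Its partner RRM1, the catalytic subunit, kept 36.4% (log2 fold change −1.46 ± 0.08 SE, adjusted p = 2.45e-10), so the subunits fell unequally. TYMS (ENSG00000176890, chr18:657653-673578, plus strand), thymidylate synthase, changed by −3.16 ± 0.14 (SE; adjusted p = 1.58e-11), while ENOSF1 on the opposite strand changed by 0.0067 ± 0.14 (SE; adjusted p = 0.968). TK1, the thymidine kinase of S phase, went from 107, 104 and 98.1 to 31.4, 17.1 and 26.96 CPM, and all senescent libraries were below the young ones (log2 fold change −2.03 ± 0.17 SE, adjusted p = 3.71e-08).

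Among the genes that act on chromatin behind the fork, UHRF1, which recruits the maintenance methyltransferase to new DNA, was at 84.3, 82.7 and 85.9 CPM in young EV and 28.2, 33.1 and 27.8 CPM in sen EV (log2 fold change −1.50 ± 0.092 SE, adjusted p = 9.31e-10). The chaperone CAF-1 gave unequal values. Its subunit CHAF1B changed by −1.75 (adjusted p = 2.51e-08). CHAF1A, the large subunit, went from 19.1, 21.8 and 20.3 to 11.9, 15.3 and 18.6 CPM, with the third sen EV library just below the young range (log2 fold change −0.42 ± 0.14 SE, adjusted p = 0.0174). With the offsets CHAF1A changed by −0.91 (adjusted p = 3.95e-06).

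The E2F activators diverged. E2F2 had few reads, with 48, 72 and 50 counts in young EV and 11, 1 and 5 in sen EV (log2 fold change −3.21 ± 0.53 SE, adjusted p = 5.88e-05). In sen TRF2 it had 0, 7 and 8 counts, and a count of 0 allows up to 0.096 CPM for counting error. E2F1 (ENSG00000101412, chr20:33675477-33686385, minus strand) did not pass the test. It was at 15.3, 14.6 and 14.9 CPM in young EV and 9.56, 13.4 and 19.1 CPM in sen EV, where the first and the second library were below and the third above the young range (log2 fold change −0.088 ± 0.17 SE, adjusted p = 0.671). Without the third sen EV library E2F1 changed by −0.40 (adjusted p = 0.0127), and with the offsets by −0.86 (adjusted p = 5.26e-06). RPA2 likewise changed by −0.29 (adjusted p = 0.00813) without that library, so that all 44 members then fell.

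The exonic GC content of the members was highest in POLD1 (64.8%), CDT1 (64.3%), TK1 (62.1%), E2F1 (61.6%) and CHAF1A (57.6%). Of the sen EV libraries, the third, with the steepest GC slope, was the highest for POLD1, CDT1, E2F1 and CHAF1A but not for TK1. The part of the GC trend in these values was not tested. Across the 44 genes, the correlation of the log2 fold change with GC content was r = 0.302 (rho = 0.29) on the counts as deposited and r = −0.232 (rho = −0.23) with the offsets, given as a description of 44 genes in the same libraries. With the offsets 41 members fell as well, but others failed the test: ORC6, RPA1 and RPA2 in place of POLD1, E2F1 and RPA2.

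**Figure D3:**
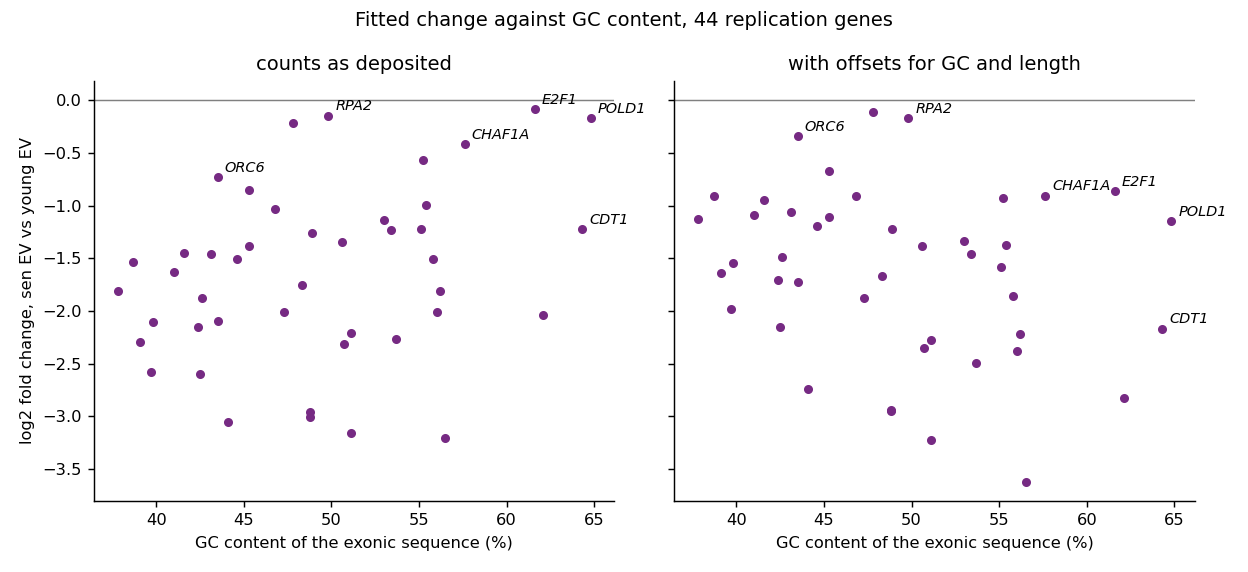
Log2 fold change between sen EV and young EV against the GC content of the exonic sequence (%) for the 44 replication genes, on the counts as deposited (left) and with offsets for GC content and length (right). The GC-rich genes POLD1, E2F1, CHAF1A and CDT1 lie lower on the right than on the left.

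The comparison of sen TRF2 with young TRF2 asks the same question in cells infected with the TRF2 virus, with other libraries. All 44 genes fell and 0 rose, with a median log2 fold change of −2.10, while 30.1% of all genes tested fell, 28.2% rose and their median was −0.018. Past the fold threshold of the study were 37 members, against 12.1% of all genes, and in 44 members the groups did not overlap, against 36.6%. No library is shared with the comparison of the EV cells, and across the 44 genes the log2 fold changes of both comparisons had r = 0.928 (rho = 0.92), against r = 0.901 (rho = 0.862) over all 15799 genes, as a description. Deposit and state cannot be told apart in either comparison, and under TRF2 the time since infection differs with state as well. Without the second young TRF2 library 44 members fell as well, with a median of −2.03.

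MCM10 had the largest fall here. It stood at 6.20% of its young level with 11.4, 13.7 and 10.6 CPM in young TRF2 and 0.733, 0.573 and 0.912 CPM in sen TRF2 (log2 fold change −3.996 ± 0.17 SE, adjusted p = 1.04e-11). RRM2 went from 129, 114 and 134 to 9.81, 10.0 and 12.6 CPM (log2 fold change −3.54 ± 0.12 SE, adjusted p = 6.61e-13). POLE2 changed by −3.52 (adjusted p = 1.19e-09), TYMS by −3.39 (adjusted p = 7.22e-12) and ORC1 by −3.21 (adjusted p = 9.31e-09). The smallest falls were those of RPA1, RPA2, POLE and POLD1. RPA1 changed by −0.17 (adjusted p = 0.037), RPA2 by −0.35 (adjusted p = 0.0101), POLE by −0.48 (adjusted p = 0.00195) and POLD1 by −0.62 (adjusted p = 0.00508). E2F1, which did not pass in EV, was at 11.4, 12.2 and 12.4 CPM in young TRF2 and 6.18, 7.42 and 7.61 CPM in sen TRF2. These groups did not overlap (log2 fold change −0.76 ± 0.18 SE, adjusted p = 0.00157). RPA1 was the weakest call, and it failed with the offsets (−0.094, adjusted p = 0.204).

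The comparison of young siLMNB1 with young EV asks what loss of Lamin B1 does to these genes in young cells, without the change of deposit. There 32 of the 44 genes fell and 0 rose. The median log2 fold change was −0.53, while 16.1% of all genes tested fell, 16.4% rose and their median was 0.039. With the study's threshold for this comparison (0.58 on the log2 scale), 19 members were downregulated, against 8.06% of all genes. In 39 members all siLMNB1 libraries lay below all young EV libraries, against 27.9% of all genes. The summed level of the 44 genes was 1168 ± 36.3 CPM with siLMNB1 (SD, n = 3). For 37 members the mean with siLMNB1 lay between the means of young EV and sen EV, a count given without a share over all genes. Both comparisons share the young EV libraries, so their values are set side by side and not correlated. The proliferation marker MKI67 also fell with siLMNB1 by edgeR's test (−1.39, adjusted p = 0.00122). Fewer cells in S phase and less RNA of a gene per cell cannot be told apart here either.

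RRM2 had the largest change with siLMNB1, at 64.3, 66.9 and 71.9 CPM against 169.5, 164 and 160.3 CPM in young EV. This was 41.1% of the EV level (log2 fold change −1.28 ± 0.11 SE, adjusted p = 3.51e-07), compared with 12.9% in sen EV. CDC6 was at 15.5, 14.6 and 17.6 CPM (log2 fold change −1.07 ± 0.13 SE, adjusted p = 1.69e-05). GINS4 was at 7.70, 6.18 and 7.64 CPM against 14.2, 17.0 and 13.1 CPM, with a log2 fold change of −1.04 ± 0.13 (SE; adjusted p = 1.74e-05). CDT1 changed by −1.09 (adjusted p = 3.06e-04) with siLMNB1 and by −1.22 in sen EV, but with the GC and length offsets the values were −1.20 and −2.17. CHAF1A changed by −0.75 (adjusted p = 7.72e-04) with siLMNB1 and by −0.42 in sen EV, and with the offsets by −0.80 and −0.91, so that their order turned. These differences between the comparisons were not tested. TK1 changed by −1.08 (adjusted p = 1.13e-04).

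The other siLMNB1 values with the smallest p were those of RRM1 and MCM10. RRM1 was at 92.1, 96.0 and 90.2 CPM with siLMNB1 and 138, 138 and 137 CPM in young EV (log2 fold change −0.57 ± 0.079 SE, adjusted p = 4.31e-05). MCM10 was at 7.77, 7.55 and 6.96 CPM with siLMNB1 (log2 fold change −0.93 ± 0.14 SE, adjusted p = 7.69e-05). In both genes the groups did not overlap. The whole MCM ring fell, between −0.80 (MCM7) and −0.50 (MCM2), as did the clamp and all loader subunits, between −0.74 (RFC3) and −0.36 (PCNA).

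Of the members, 12 did not pass the test with siLMNB1. GINS3 was at 4.52, 4.39 and 4.44 CPM (0.01, adjusted p = 0.977) and GINS1 had a log2 fold change of −0.095 (adjusted p = 0.564), although GINS2 fell (−0.69, adjusted p = 0.0048) like GINS4, so the 4 subunits of this complex had unequal values. E2F2 had 48, 69 and 93 counts (0.027, adjusted p = 0.969). E2F1 was at 11.5, 11.04 and 12.6 CPM, below all young EV libraries, without passing the test (−0.35, adjusted p = 0.133). The others were ORC6 (−0.26), PRIM1 (−0.52), PRIM2 (−0.30), POLD1 (−0.40), LIG1 (−0.29), DNA2 (−0.19), RPA2 (−0.20) and RPA3 (−0.25), with adjusted p between 0.066 and 0.45.

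The comparison of young TRF2 with young EV asks whether added TRF2 changes these genes before senescence. By edgeR's quasi-likelihood test, 0 of the 44 genes fell and 0 rose, in a comparison where 0.0253% of all genes fell and 0.152% rose. At an unadjusted p below 0.05, 17 members were lower, against 3.66% of all genes, and DESeq2's Wald test called 2. In 26 members all young TRF2 libraries lay below all young EV libraries, against 12% of all genes, and 43 members (97.7%) had a log2 fold change below 0, against 48.9% of all genes. Their median was −0.25, and that of all genes 0.0051. RRM2 was at 129, 114 and 134 CPM against 169.5, 164 and 160.3 CPM (log2 fold change −0.39 ± 0.11 SE, adjusted p = 0.186), and RRM1 at 114, 107 and 119 CPM against 138, 138 and 137 CPM (log2 fold change −0.29 ± 0.078 SE, adjusted p = 0.186). Both genes were lower in 3 of 3 libraries without passing the adjustment. RFC3 changed by −0.42 (adjusted p = 0.248), MCM5 by −0.38 (adjusted p = 0.291) and CDT1 by −0.49 (adjusted p = 0.372). POLA1 had a log2 fold change of −0.0025 (adjusted p = 0.999). When the model held the libraries of these groups alone, 12 members fell, a count given without its share over all genes. Without the second young TRF2 library 0 fell, and the median was −0.25.

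The comparison of sen TRF2 with sen EV asks the same in senescent cells, which had also gone through more divisions with TRF2. Here 28 of the 44 genes fell and 0 rose, with a median log2 fold change of −0.60, against 6.41% of all genes that fell and 4.87% that rose. In 29 members the groups did not overlap, against 13.9% of all genes. These calls rest on the spread shared by all 15 libraries. With the libraries of these groups alone 0 members fell. Without the third sen EV library in addition (an alternative chosen after seeing the data) 7 fell. Both counts are given without their shares over all genes. The proliferation marker MKI67 fell as well in edgeR's model of all 15 libraries (−1.175, adjusted p = 0.0354). Fewer cells in S phase and less RNA of a gene per cell cannot be told apart here either.

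CDC6 had the smallest p, with 5.65, 8.52 and 9.17 CPM in sen EV and 3.00, 2.64 and 2.59 CPM in sen TRF2 (log2 fold change −1.51 ± 0.16 SE, adjusted p = 7.22e-05). GINS4 went from 7.06, 5.56 and 5.86 to 2.29, 2.36 and 2.62 CPM (log2 fold change −1.34 ± 0.15 SE, adjusted p = 1.04e-04), and CDC45 from 2.75, 2.85 and 4.08 to 0.797, 0.987 and 1.37 CPM (log2 fold change −1.61 ± 0.21 SE, adjusted p = 3.09e-04). In these 3 genes the sen TRF2 libraries were all below the sen EV ones. MCM5 was at 22.6, 30.4 and 35.2 CPM in sen EV and 13.9, 13.0 and 15.04 CPM in sen TRF2 (log2 fold change −1.07 ± 0.13 SE, adjusted p = 1.61e-04). RRM2 was at 24.2, 20.8 and 18.8 CPM and 9.81, 10.0 and 12.6 CPM (log2 fold change −0.97 ± 0.12 SE, adjusted p = 1.63e-04). E2F1, which had not passed between the EV groups, changed by −0.99 ± 0.18 (SE; adjusted p = 0.0027), and POLD1 by −0.75 ± 0.17 (SE; adjusted p = 0.0105). The third sen EV library was the highest sen EV library for both genes, and their values without it are not given here. Over 13 alternative fits, E2F1 spanned −1.2 to −0.699 and passed in 12. POLD1 spanned −0.955 to −0.535 and passed in 11.

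By role, all 5 licensing genes and all 6 MCM genes fell in sen TRF2, 5 of 6 activation factors, 3 of 4 nucleotide genes, 1 of 3 RPA genes, 3 of 7 polymerase genes, 1 of 5 clamp genes, 1 of 3 Okazaki genes, 2 of 3 chromatin genes and 1 of 2 E2F genes. CDT1 changed by −1.33 (adjusted p = 8.62e-04), CHAF1A by −0.95 (adjusted p = 8.99e-04) and RPA2 by −0.46 (adjusted p = 0.0125). Of 13 alternative fits, CDT1 and CHAF1A each passed in 12 and RPA2 in 11. The weakest call was MCM6 (−0.32, adjusted p = 0.0495), whose groups overlapped. PCNA had a log2 fold change of −0.019 (adjusted p = 0.907), and RRM1 had −0.038 (adjusted p = 0.787). The subunits of ribonucleotide reductase thus differed again, with RRM2 past the test and RRM1 near 0.

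**Figure D4:**
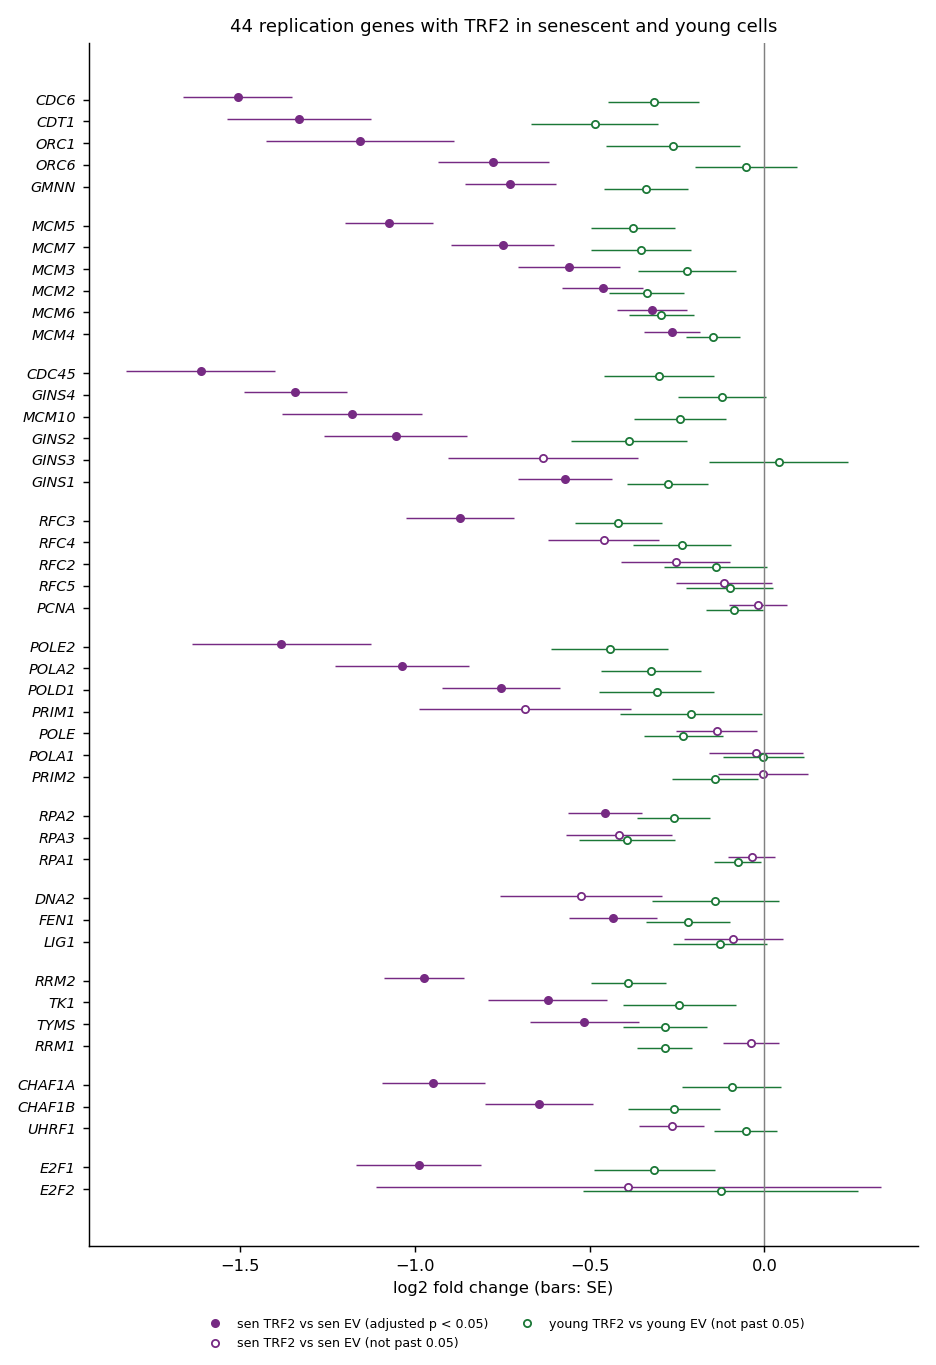
Log2 fold changes of the 44 replication genes (points, bars are SE) with TRF2 in senescent cells (sen TRF2 against sen EV) and in young cells (young TRF2 against young EV), grouped by role. Filled points have an adjusted p below 0.05, which 28 genes reach in senescent cells and 0 in young cells.

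The interaction of the 4 groups with control siRNA tested the change with senescence under TRF2 minus that under EV. The TRF2 virus had also been carried longer in senescent than in young cells, which cannot be told apart from state. In 3 of 44 members the difference between these changes passed, with a lower value under TRF2 in all 3. In the other direction 0 passed, against 0.956% and 0.177% of all genes. The difference was −1.19 ± 0.20 (SE; adjusted p = 0.0168) for CDC6, −1.22 ± 0.19 (SE; adjusted p = 0.0166) for GINS4 and −1.31 ± 0.27 (SE; adjusted p = 0.0317) for CDC45. CDC6 fell by 2.10 on the log2 scale with EV and by 3.29 with TRF2. Next in order, without passing, were CHAF1A (−0.85, adjusted p = 0.0533), MCM5 (−0.70, adjusted p = 0.0665), MCM10 (−0.94, adjusted p = 0.0718) and RRM2 (−0.58, adjusted p = 0.0914). For RRM1 and PCNA the difference was 0.25 and 0.067. In 38 members (86.4%) the difference was below 0, against 53.8% of all genes. The count of 3 moved with single libraries, and shares over all genes are not given for these fits. It was 0 without the first or the second sen TRF2 library or without the first young TRF2 library, 1 without the first or the second young EV library, 2 without the second young TRF2 library, 5 without the third sen EV library and 16 without the first sen EV library.

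Levels of different genes were compared per kb of exonic length (all exons of a gene joined), on the scale of CPM per kb, for the empty vector. In young EV, PCNA led with 91.1 ± 1.70 CPM per kb (SD, n = 3), followed by TK1 with 55.8 ± 2.50, RRM1 with 32.6 ± 0.190, MCM7 with 30.8 ± 0.201 and FEN1 with 19.8 ± 0.464. Each of these 5 levels was separate from the next in all libraries. At the foot stood POLA1 with 1.01 ± 0.0829, DNA2 with 0.980 ± 0.0768, GINS3 with 0.862 ± 0.170 and E2F2 with 0.345 ± 0.0405 CPM per kb. Of the 43 pairs of neighbours in this order, 27 had overlapping libraries in young EV and 39 in sen EV. In sen EV, PCNA again led with 50.4 ± 4.33 CPM per kb, but RPA2 with 16.1 ± 2.54 and RPA1 with 14.8 ± 0.504 came next, and these neighbours overlapped. RRM2 moved from 18.0 ± 0.506 to 2.32 ± 0.301 CPM per kb. Between the log2 level per kb in young EV and the log2 fold change in sen EV, r was 0.261 (rho = 0.246) across the 44 genes, as a description. The order depends on the length used. Per kb of the canonical transcript, an alternative chosen after seeing the data, PCNA (100.1) and TK1 (72.0) again led in young EV, but MCM7 (61.9), RRM2 (50.5) and RRM1 (43.9) came next, and POLA1 (2.87) was no longer among the lowest 4. In the MCM ring, MCM7 was highest by both lengths, while MCM4 was the lowest by all exons (8.13) and stood at 19.7 by the canonical transcript, above MCM2 at 15.5.

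**Figure D5:**
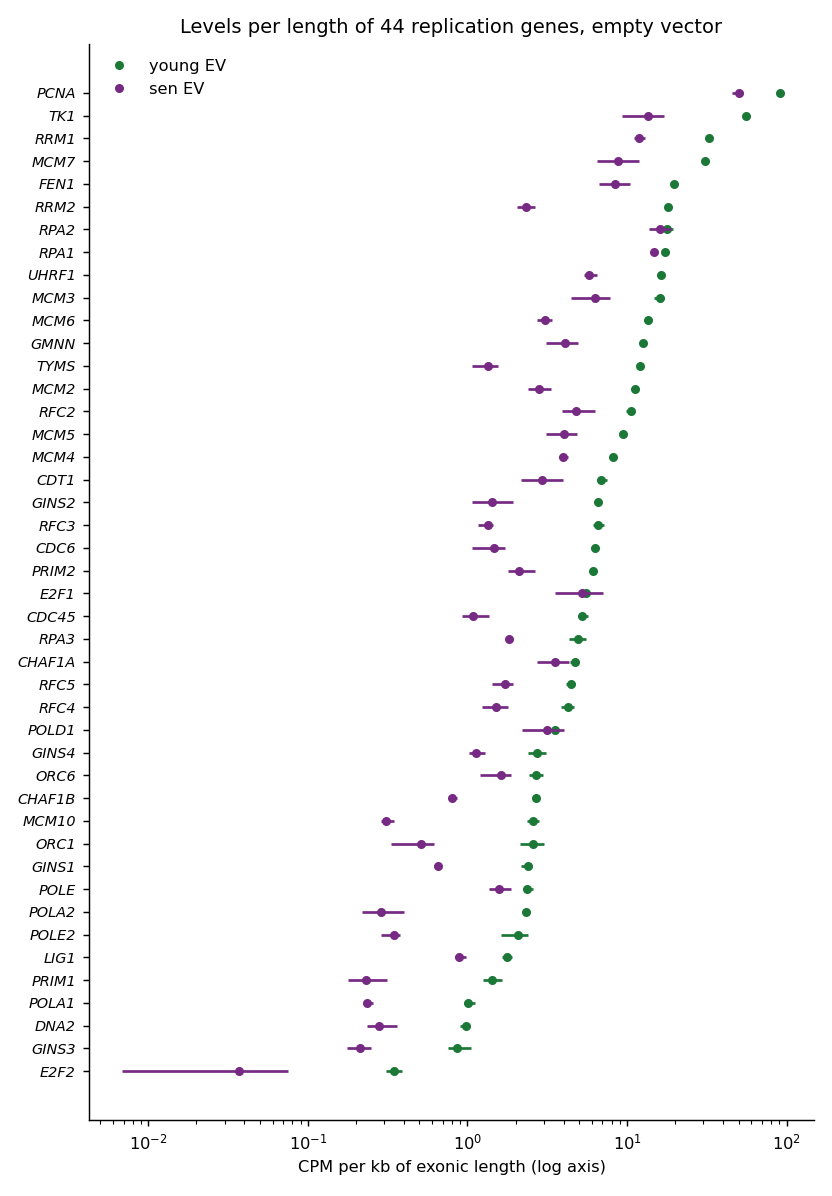
Levels of the 44 replication genes per length (CPM per kb of exonic sequence, log axis) in young EV and sen EV, ordered by young EV, with points for the mean of 3 libraries and lines from the lowest to the highest library. The points of RPA2, E2F1 and POLD1 in both groups lie close together, and PCNA has the highest level in both.

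A second list held 43 further replication genes, such as the other ORC subunits, the CDC7 kinase and the accessory subunits of polymerases. All 43 were tested, and 34 fell and 4 rose in sen EV, with a median log2 fold change of −0.98, against 31.9% and 32.7% of all genes. In sen TRF2 against young TRF2, 34 fell and 3 rose, against 30.1% and 28.2%, and with siLMNB1 24 fell and 0 rose, against 16.1% and 16.4%. The largest fitted changes in sen EV were those of CHTF8, at 65.5 ± 2.35 CPM in young EV and 0.224 ± 0.185 CPM in sen EV (SD, n = 3), and of RNASEH2A, at 24.2 ± 1.18 and 0.119 ± 0.0944 CPM. CHTF8 shares 73.8% and RNASEH2A 53.3% of its exonic bases with another gene on its strand, and both values carry the same doubt as that of POLA2. TOP2A, the topoisomerase that untangles copied DNA, changed by −2.92 (adjusted p = 2.39e-11) and DSCC1, a subunit of the alternative clamp loader, by −2.42 (adjusted p = 1.33e-08), and neither shares exonic bases on its strand. MCM8, a helicase of recombination that shares 33.3% on its strand, changed by −2.90 (adjusted p = 3.87e-10).

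The 4 genes that rose in sen EV were POLD4 (1.30, adjusted p = 0.0013), RECQL4 (0.69, adjusted p = 0.00394), RNASEH2C (0.47, adjusted p = 0.0175) and POLD2 (0.36, adjusted p = 0.0206). POLD2 and POLD4 are accessory subunits of polymerase delta, whose catalytic subunit POLD1 had not passed. POLD4 shares 21.3% of its exonic bases on its strand. In sen TRF2 against young TRF2, POLD4 (0.78, adjusted p = 0.0373) and POLD2 (0.36, adjusted p = 0.0201) rose as well. RECQL4 (−0.20, adjusted p = 0.379) and RNASEH2C (0.29, adjusted p = 0.127) did not pass there. The sen EV libraries spanned 9.52 to 17.2 CPM for RECQL4 and 25.7 to 43.8 CPM for RNASEH2C. Values with offsets or without the third sen EV library are not given for these genes.

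A list of 18 regulators of S phase entry was also measured. In sen EV 12 fell and 3 rose, with a median log2 fold change of −0.52, against 31.9% of all genes that fell and 32.7% that rose. With siLMNB1 9 fell and 3 rose, against 16.1% and 16.4% of all genes. The deepest falls in sen EV were those of CCNA2, the cyclin of S phase and G2 (−3.08, adjusted p = 1.07e-13), E2F8 (−3.07, adjusted p = 6.80e-06), MYBL2 (−2.78, adjusted p = 2.55e-09), FBXO5 (−2.60, adjusted p = 2.84e-10) and CCNE2 (−2.00, adjusted p = 6.02e-06). The genes that rose were CCND1, the D-type cyclin of G1, from 1947 ± 30.5 to 3922 ± 638 CPM (1.01, adjusted p = 2.57e-07), CCNE1 (0.77, adjusted p = 3.65e-04) and E2F4, an E2F repressor (0.48, adjusted p = 7.21e-04). With siLMNB1 the genes that rose were CCNE1 (0.58, adjusted p = 0.00804), E2F5 (0.74, adjusted p = 0.00286) and TFDP2 (0.33, adjusted p = 0.0311). By edgeR's test CCND1 fell with siLMNB1 (−0.90, adjusted p = 5.45e-06), opposite to sen EV. E2F3 also fell with siLMNB1 (−1.68, adjusted p = 5.71e-08), and changed by −0.71 in sen EV. The cyclin E genes thus went opposite ways in senescent cells, CCNE1 up and CCNE2 down. They did so with siLMNB1 as well, where CCNE2 changed by −0.85 (adjusted p = 0.0111 by edgeR's test).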

How the data were processed

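RNA of 15 libraries of MRC-5 cells (5 conditions, 3 replicates each) was sequenced by the authors, who per the study's methods and the labels used Trimmomatic for trimming and STAR for mapping to GRCh38, and deposited raw read counts per gene from its GeneCounts mode, which leaves out reads that overlap more than 1 gene. The annotation release and strand setting are not given in the sources used here. Groups came from the labels.

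Genes were named and measured for exonic length, GC content and overlaps with GENCODE release 44, which holds 56948 of the 57272 identifiers in the table. The deposited counts were tested with edgeR 4.0.16 (R 4.3.3) by its quasi-likelihood test, with TMM scaling, its default filter on low counts and 1 model for all 15 libraries, and p-values were adjusted by Benjamini-Hochberg over the 15799 genes kept. CPM values use the TMM library sizes. GC and length offsets were fitted by loess per library (span 0.3). Alternatives were DESeq2 1.42.0, other scaling and filters, offsets, the libraries compared alone, a replicate block and leaving out each library. The fits were tested on simulated counts. Total counts were 26725885 to 43116046 per library. The floor given for a count of 0 covers counting error only.

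All 44 members may be named. Values per library are given for the members with the smallest and largest adjusted p of each role in senescent cells, those that did not fall there, and those with the smallest p elsewhere. Of the other lists, the 5 genes with the largest called change in senescent cells and those that went the other way are named. The members and lists were chosen with earlier results of these data known. Tables and plots were made with Python 3.11.15, pandas 2.3.3 and matplotlib 3.10.9.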

Additional observations from a re-analysis of the deposited data

Results flagged for a closer look

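In 3 of 44 members the change between senescent and young cells differed between TRF2 and EV by a test of the difference itself (the interaction in edgeR's quasi-likelihood test). Over all genes tested, 0.956% passed in this direction and 0.177% in the other. The count of members went from 0 to 16 when single libraries were left out. Of 19 alternative fits, CDC45 passed in 10, CDC6 in 13 and GINS4 in 16. The difference of log2 fold changes was −1.31 for CDC45 (adjusted p = 0.0317), −1.22 for GINS4 (adjusted p = 0.0166) and −1.19 for CDC6 (adjusted p = 0.0168), so that each fell further under TRF2. All sen TRF2 libraries of these genes were below all sen EV libraries, which was the case for 13.9% of all genes. GINS4 shares 33.4% of its canonical transcript with long non-coding RNAs on the opposite strand, and the strand setting is not known. The senescent groups differ in TRF2 and in population doubling together, which cannot be told apart (PD 71 with EV, PD 75 with TRF2). The TRF2 virus had also been carried longer in senescent cells than in young ones.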

How the results depend on the processing

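The number of members that fell was 40 to 44 in sen EV, 43 to 44 in sen TRF2 against young TRF2, 28 to 30 with siLMNB1, 19 to 27 in sen TRF2 against sen EV and 0 to 0 in young TRF2 when single libraries were left out, and 0 rose in any of these. The interaction count went from 0 to 16 in the same way. Among the 24 members without an exonic base in common with another gene, 22 fell in sen EV, 24 in sen TRF2 against young TRF2, 18 with siLMNB1 and 16 in sen TRF2 against sen EV, and 1 passed the interaction; fewer genes are counted here by construction. With GC and length offsets the median log2 fold change of sen TRF2 against young TRF2 was −1.87 and the interaction count 7. The study's fold threshold left 19 members with siLMNB1. DESeq2's Wald test called 2 members in young TRF2 and 7 for the interaction, and without a filter on low counts the interaction count was 9. With the libraries compared alone, 12 members fell in young TRF2, 0 in sen TRF2 against sen EV and 1 passed the interaction. Without the third sen EV library as well, which was chosen after seeing the data, 7 fell in sen TRF2 against sen EV. Apart from the smaller sets of genes and samples, the cause was not tested. Shares over all genes are given only for edgeR's fit of all 15 libraries without offsets or block.

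The labels number the replicates 1 to 3 in each group, but same-numbered libraries did not deviate together (correlations of −0.105 to 0.0669, with 3 of 15 best with their own number). With the replicate block 41 members fell in sen EV, 44 in sen TRF2 against young TRF2, 33 with siLMNB1, 0 in young TRF2 and 26 in sen TRF2 against sen EV, and 4 passed the interaction. With the replicate block and the offsets the median of sen TRF2 against young TRF2 was −1.88 (−1.875 before rounding) and the interaction count 7.

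Among the members recomputed under each alternative, the direction turned in these. With siLMNB1, GINS3 had −0.00869 by DESeq2's Wald test, −0.00635 with DESeq2's size factors, −0.00421 with the replicate block and offsets and −0.0754 to 0.193 with single libraries left out. E2F2 had −0.0104 with offsets, −0.0151 with the replicate block and offsets and −0.0491 to 0.146 with libraries left out. In sen TRF2 against sen EV, PCNA had 0.0601 with offsets, 0.0614 with the replicate block and offsets and −0.086 to 0.0283 with libraries left out, and RRM1 −0.0805 to 0.0348. With libraries left out, POLA1 in young TRF2 had −0.0924 to 0.0678, and in sen EV E2F1 had −0.395 to 0.117 and POLD1 −0.406 to 0.0284.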
